A study of Mus musculus with 2 samples.

Results

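The genes described here encode the proteins of the cytosolic ribosome. They were chosen by symbol alone: Rpl or Rps followed by a digit, Rplp, or Rpsa, without Rps6k kinases and without symbols holding -ps. This gave 86 of the 32285 genes in the deposited tables, 52 with large subunit symbols and 34 with small subunit symbols. The small subunit group includes Rps19bp1, which the rule took in by its symbol although it encodes a protein that binds Rps19 and is not part of the ribosome. Another 8 symbols are those of paralogs or gene copies: Rpl3l, Rpl7l1, Rpl10l, Rpl22l1, Rpl36al, Rpl39l, Rps27l and Rps27rt. At least 1 molecule was counted for 85 of the 86 genes.

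The cytosolic ribosome joins a small subunit, which reads the mRNA, to a large subunit, which links amino acids. Its proteins are made in near equal numbers, and most of their transcripts begin with a run of pyrimidines, the terminal oligopyrimidine (TOP) tract, through which mTOR signalling and the RNA-binding protein Larp1 control their translation. In neurons these transcripts are known both in the cell body and in dendrites and axons.

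The data were 2 Visium spatial transcriptomes, 1 coronal section from each of 2 mice, in which RNA molecules were counted by unique molecular identifiers (UMIs) at barcoded spots that each cover several cells. Both mice expressed hM3Dq, an engineered receptor that the drug CNO activates, and both received CNO, so no untreated section was measured and each comparison below is between regions of treated brains. Both are labelled wild type, but their genotype labels differ: mouse 1 is called a C57BL/6J control, and mouse 2 an isogenic control that was edited with CRISPR-Cas9. The injection was made 4.6 mm posterior to bregma, and the 10 µm sections came from 1.9 mm posterior to bregma, so they lay over 2.5 mm in front of it. The labels do not state the promoter or vector that carried the receptor.

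Mouse 1 gave 30671753 UMIs over 3715 spots under tissue and mouse 2 gave 55315952 over 3549, with medians of 7547 and 14663 UMIs per spot. Of these spots 3712 and 3548 were used. Each spot was placed in the region whose marker genes scored highest, and no ribosomal protein gene is a marker. The 8 regions compared were the dentate granule (DG), CA1 and CA3 layers, which together are called the hippocampal cell layers, and the hippocampal neuropil, cortex, thalamus, white matter and choroid plexus. In both mice every marker of a region was higher in that region than in the others together, except for cortex, where this held for 19 of 23. A spot mixes cell types and a region is an area of tissue, so fewer cells of a type cannot be told apart from less RNA per cell. UMIs were summed per mouse and region, and levels are given as CPM, a gene's UMIs divided by all UMIs of that region and multiplied by 1e6. CPM are not scaled to transcript length, so they are compared between regions and not between genes.

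Ribosomal protein transcripts made up a large part of the RNA captured: 12.5% of all UMIs in mouse 1 and 9.91% in mouse 2. Their share was highest in the DG layer, at 20.1 and 13.7% in mouse 1 and mouse 2, and lowest in the thalamus, at 8.05 and 6.97% (values are given in that order throughout). The neuropil stood at 15.6 and 12.5% and the white matter at 14.8 and 12.6%. Both followed the DG layer in each mouse, but in opposite order. The cortex held 13.5 and 10.5%, the CA1 layer 13.6 and 10.0% and the CA3 layer 11.7 and 9.37%. CA1 and cortex also changed places between the mice, so their order is not settled. The choroid plexus, at 9.59 and 7.54%, was second lowest in both. In every region mouse 2 was lower, with 0.684 (DG layer) to 0.866 (thalamus) times the share of mouse 1. Exact (Clopper-Pearson) 95% intervals, which cover counting error only, were widest for the DG layer of mouse 1 among the 8 regions, from 20.0% to 20.3%.

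**Figure D1:**
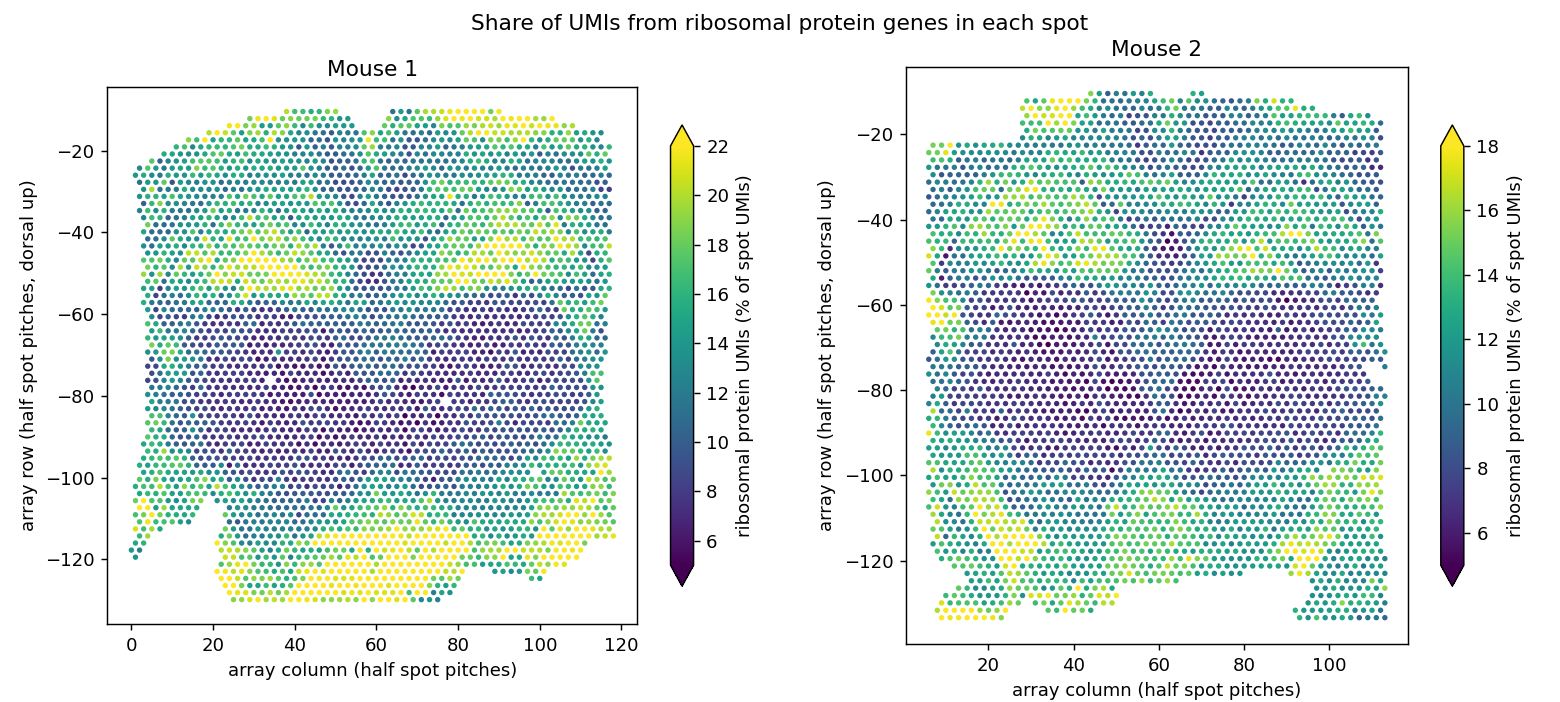
Share of each spot's UMIs that came from ribosomal protein genes, drawn at the spot's position in the section of mouse 1 (left) and mouse 2 (right); axes are array rows and columns, and each section has its own colour scale in percent. The thalamus is the dark field in the middle of both sections, with summed shares of 8.05 and 6.97%, and bright spots mark the hippocampus and the ventral edge.

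**Figure D2:**
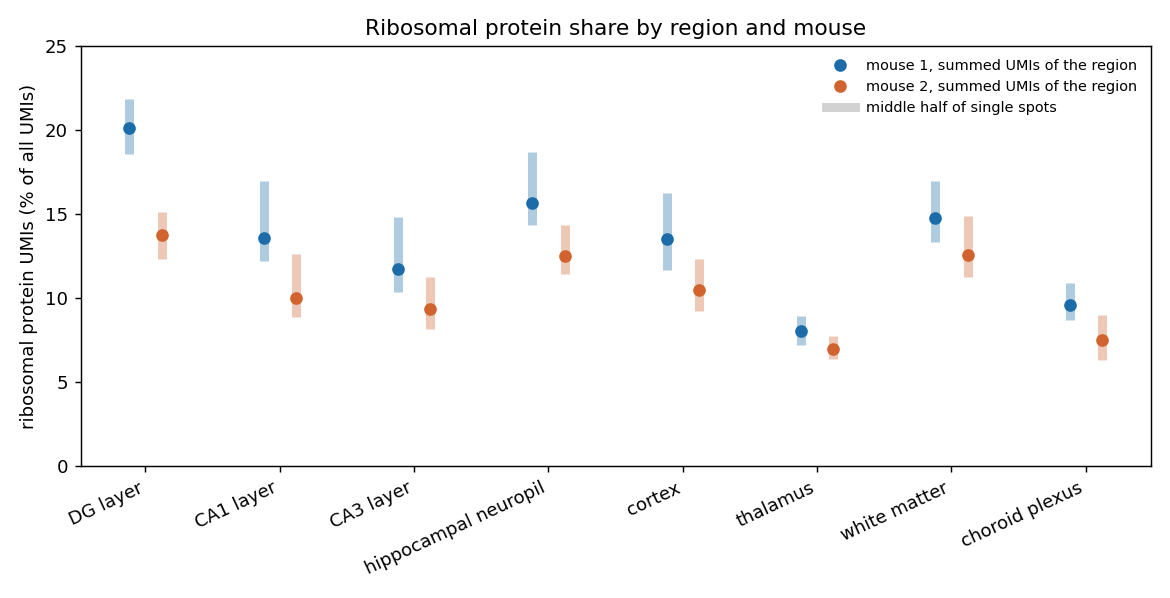
Ribosomal protein share of the summed UMIs of each region (points, % of all UMIs; blue mouse 1, orange mouse 2), with bars from the 25th to the 75th percentile of single spots. The DG layer is highest in both mice, at 20.1 and 13.7%, and the thalamus lowest, at 8.05 and 6.97%, and mouse 2 lies below mouse 1 in all 8 regions.

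The bright ventral edge in the maps came from spots placed by hypothalamic markers, a set used only to keep such spots out of the 8 regions. There the genes held 17.7 and 12.3% of UMIs in 439 and 522 spots, above the cortex in both mice. Habenular spots, next to the thalamus, held 12.0 and 9.64%, and spots placed by reticular thalamic markers 11.1 and 9.47%, each above the thalamus of the same mouse. Within the cortex, spots placed by upper layer markers held 15.5 and 10.8% and by layer 4 markers 16.9 and 11.2%. Layer 5 spots held 12.7 and 9.85% and layer 6 spots 12.6 and 10.3%. Upper and layer 4 spots thus stood above layer 5 and layer 6 spots in each mouse, without a test. They also held fewer UMIs per spot, with medians of 5103 and 11323.5 (upper) and 5462 and 10801.5 (layer 4). Layer 5 spots had medians of 6658 and 13941 and layer 6 spots 8300 and 15190.5, and the part of depth was not tested.

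The share moved with depth. Within each region of each mouse, spots with more UMIs had lower shares, with Spearman's rho across spots between -0.30 (thalamus of mouse 1, 991 spots) and -0.88 (CA1 layer of mouse 1, 71 spots). Depth and share come from the same spots and are not independent. Median UMIs per spot were 9488 and 19086 in the thalamus and 6553 and 13850.0 in the cortex, while ribosomal protein UMIs per spot were 772 and 1333 against 917 and 1476. Thalamic spots therefore held more UMIs in all and fewer UMIs from ribosomal protein genes. DG spots held 1578 and 2735 UMIs from these genes at the median, the CA1 spots 991 and 1838 and the CA3 spots 1006 and 2064. The comparisons below are also given for spots of middle depth, those between the 25th and 75th percentile of UMIs in their section.

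Promoter sequences were available for 66 of the 86 genes in RefSeq (GRCm38.p6, the assembly named mm10). The letters CTTTC, a short TOP-like run, occurred on the gene strand between 15 bases before and 50 after the start in 31 of the 66 (47.0%), and in 9.51% of all 27025 genes of the table. CCGGAAG, the core bound by ETS factors, was found on either strand of the 300 bases from 250 before to 50 after the start in 26 (39.4% against 9.93%). TCTCGCGA, searched likewise, was found in 11 (16.7% against 1.13%) and TATAAA in 7 (10.6% against 15.7%). A match describes the letters and not a working site. The 7 stretches below run from 50 bases before the start to 30 after it, 5′ to 3′ on the gene strand, with CTTTC in its window and CCGGAAG in capitals. They are shown for the genes on which the results turn: Rps15a and Rpl35 for the DG layer and thalamus, the pairs Rps27 and Rps27l and Rpl22 and Rpl22l1, whose members differed between regions, and Rps19bp1. Rps27l and Rpl22 have 2 listed starts, of which the one listed first is shown.
Rps15a (chr7:118116118-118116197, minus strand): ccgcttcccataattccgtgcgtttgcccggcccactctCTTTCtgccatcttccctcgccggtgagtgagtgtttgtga
Rpl35 (chr2:39005102-39005181, minus strand): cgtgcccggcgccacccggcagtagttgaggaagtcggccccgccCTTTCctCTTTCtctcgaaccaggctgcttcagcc
Rps27 (chr3:90213619-90213698, minus strand): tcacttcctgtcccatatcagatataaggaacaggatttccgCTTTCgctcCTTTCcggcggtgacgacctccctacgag
Rps27l (chr9:66946036-66946115, plus strand): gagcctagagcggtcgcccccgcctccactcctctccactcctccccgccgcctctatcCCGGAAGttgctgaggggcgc
Rpl22 (chr4:152325676-152325755, plus strand): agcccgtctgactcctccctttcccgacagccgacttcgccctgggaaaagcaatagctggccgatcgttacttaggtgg
Rpl22l1 (chr3:28805458-28805537, plus strand): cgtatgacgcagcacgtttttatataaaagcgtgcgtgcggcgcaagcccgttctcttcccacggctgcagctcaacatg
Rps19bp1 (chr15:80264277-80264356, minus strand): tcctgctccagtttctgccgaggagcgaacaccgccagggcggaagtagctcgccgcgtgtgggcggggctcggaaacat

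The comparison of the DG layer with the CA layers asks whether the granule cell layer and the pyramidal layers differ. Nearly the whole set was higher in the DG layer. Of the 83 genes with enough UMIs to be tested, 80 were higher (96.4%) and none lower, where 5.96% of all 12996 genes tested were higher and 5.32% lower (edgeR's quasi-likelihood test, Benjamini-Hochberg adjusted p under 0.05, as in all counts below; none was lower at an unadjusted p under 0.05 or by DESeq2 either). The median log2 difference was 0.63 over the 83 genes and 0.016 over all genes. Among the 1460 other genes with a mean of at least 100 CPM, 9.73% were higher, against all 80 ribosomal protein genes at that level. The summed share differed by 0.67 and 0.50 on the log2 scale in the mice, a mean of 0.59 ± 0.12 (SD, n = 2).

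Rps15a, a small subunit protein, showed the largest difference (ENSMUSG00000008683; chr7:118104374-118116147). It held 3229.9 and 1806 CPM in the DG layer, 1557 and 1079 in CA1 and 1263 and 1059 in CA3. Its lowest DG value lay above every CA value, and its log2 difference was 1.02 ± 0.10 (SE; adjusted p = 8.89e-12). Rpl34, of the large subunit, held 4813 and 2472 CPM in DG against 2365 and 1564 in CA1 and 2052 and 1523 in CA3. Within each mouse the DG layer was highest, with a log2 difference of 0.96 ± 0.11 (SE; adjusted p = 9.79e-11). Rps16 followed with 0.89 ± 0.10 (SE; adjusted p = 1.09e-09), Rpl35 with 0.84 ± 0.095 (SE; adjusted p = 2.6e-10) and Rps13 with 0.83 ± 0.11 (SE; adjusted p = 1.06e-08). Rpsa, known also as the precursor of a laminin receptor, had the smallest difference that passed, 0.32 ± 0.10 (SE; adjusted p = 0.0265). It held 1216 and 1224 CPM in DG and 1235 and 980.0 in CA1, so that DG was not above CA1 in mouse 1.

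The 3 genes that did not pass were Rps19bp1, Rpl7l1 and Rps27rt, with log2 differences of -0.18, 0.20 and 0.22. None of them encodes one of the standard proteins of the ribosome. Rps19bp1 (ENSMUSG00000051518; chr15:80260614-80264306) held 102 and 37.7 CPM in the DG layer, 67.0 and 55.6 in CA1 and 76.8 and 48.6 in CA3, and the mice differed in direction. All 3 were counted in few UMIs, and in the DG layer of mouse 1 Rps27rt had 7 and Rpl7l1 10. The standard errors were 0.23, 0.21 and 0.21, against 0.10 for Rps15a.

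Of 13 genes of the mitochondrial genome 5 were lower in DG and the other 8 did not pass, and they took 6.90 and 9.63% of UMIs in the DG layer, 10.2 and 10.2% in CA1 and 9.88 and 10.9% in CA3. With their UMIs left out of the total, the summed share still differed by 0.62 and 0.49 in the mice. Neuronal markers were lower in DG for 6 of 10 genes, with a summed level of 3618 and 4315 CPM against 4584 and 5040.3 in CA1 and 7930.1 and 8781 in CA3, and oligodendrocyte markers for 4 of 10. Of 10 genes of stress and RNA quality 2 were higher and 4 lower. The part of these genes in the result was not tested. At middle depth the difference remained, at 0.63 and 0.46, with 75 genes higher. Without the mouse as a block 39 passed.

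Thalamus, the relay between brainstem and cortex, gave the mirror image when compared with cortex. Of 83 genes tested, 82 were lower in the thalamus (98.8%), where 22.8% of all genes were lower and 23.6% higher; none of the ribosomal protein genes was higher, at an unadjusted p under 0.05 or by DESeq2 either. The median log2 difference was -0.74, and 0.027 over all genes. The summed share differed by -0.75 and -0.59 in the mice, a mean of -0.67 ± 0.12 (SD, n = 2), and the thalamus held 0.629 times the share of the cortex. Among other genes with at least 100 CPM, 39.0% were lower, against all 80 ribosomal protein genes at that level.

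Rpl35, a large subunit protein near the exit of the peptide tunnel, was the lowest relative to cortex (ENSMUSG00000062997; chr2:39001581-39005131). It held 914 and 401 CPM in the thalamus and 1813 and 770.1 in the cortex. The thalamus was lower within each mouse, although mouse 1's thalamus was above mouse 2's cortex, and the log2 difference was -1.07 ± 0.10 (SE; adjusted p = 3.56e-14). Rpl12, at the base of the ribosomal stalk, stood at 656 and 636 CPM in the thalamus against 1379 and 1119.9, with no overlap and a difference of -1.04 ± 0.11 (SE; adjusted p = 3.97e-12). Rpl29 (-1.04), Rps7 (-0.99) and Rpl9 (-0.97) came next and passed likewise. The smallest difference that passed was that of Rpl36al, -0.26 ± 0.10 (SE; adjusted p = 0.0236), followed by Rpl7 at -0.29 ± 0.10 (SE; adjusted p = 0.0139) and Rps6 at -0.30 ± 0.10 (SE; adjusted p = 0.0133). Rps6 is the substrate of S6 kinases whose phosphorylation is used to mark active neurons. Scaling to library totals ended the calls of Rpl36al (-0.16) and Rpl7 (-0.19), and middle depth that of Rpl7 (-0.18). The fit without a filter on low counts ended that of Rpl36al (-0.23). Without the mouse as a block Rpl35 stood at -1.08 and did not pass (edgeR, adjusted p = 0.160). Rpl36al, Rpl7, Rpl38, Rps21 and Rps27l did not pass in that fit either. There 73 genes were lower at an unadjusted p under 0.05, against 82 with the block.

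The exception was Rpl7l1 (ENSMUSG00000063888; chr17:46773907-46782656), a paralog of Rpl7. It held 47.5 and 49.1 CPM in the thalamus and 41.8 and 44.9 in the cortex, so the thalamus was slightly higher in each mouse, with a log2 difference of 0.047 ± 0.091 (SE; adjusted p = 0.703). Rps19bp1 passed as lower, at -0.40 ± 0.10 (SE; adjusted p = 0.000402). Of the standard proteins of the ribosome that were tested, each passed as lower in the thalamus. Oligodendrocyte markers were higher in the thalamus for 7 of 10 genes, at 8527 and 8708 CPM summed against 5503 and 7327. Of 10 neuronal markers 3 were higher and 2 lower, at 7292 and 7350.1 against 5859 and 6151 summed. Of 10 genes of stress and RNA quality 2 were higher and 5 lower. Their part was not tested. At middle depth, where thalamic and cortical spots had medians of 8216 and 7233 UMIs in mouse 1, the summed share differed by -0.73 and -0.47, with 81 genes lower.

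**Figure D3:**
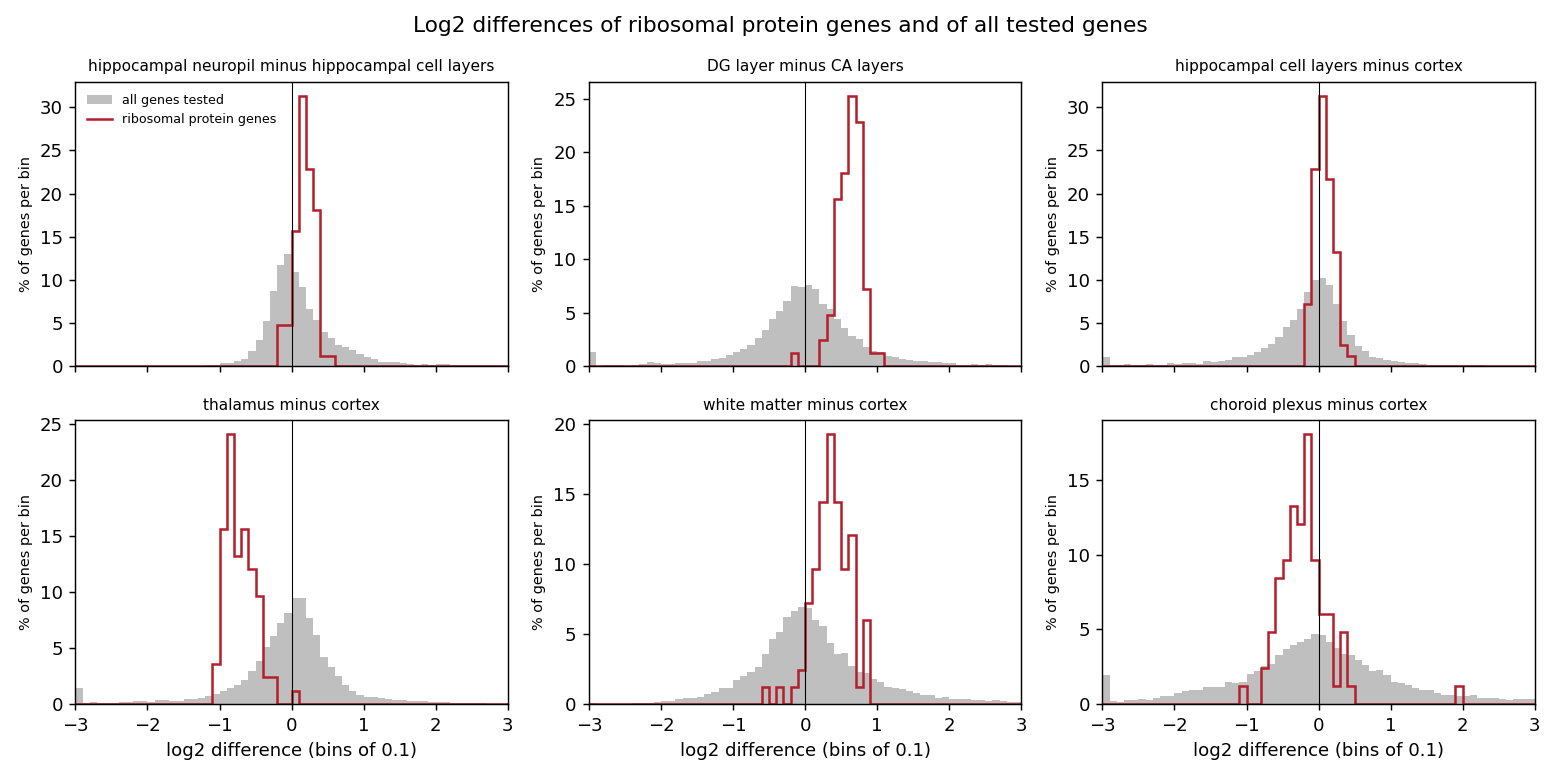
Distribution of log2 differences in the 6 comparisons, as % of genes per bin of 0.1, for all 12996 genes tested (grey) and the 83 ribosomal protein genes tested (red). The ribosomal protein genes sit to the right of 0 in the DG comparison, with a median of 0.63, to the left in the thalamus, with -0.74, and close to 0 in the comparison of cell layers with cortex, with 0.073.

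In white matter most of the set was higher. Of 83 genes, 59 were higher than in cortex (71.1%) and 2 lower (2.41%), where 26.7% of all genes were higher and 24.2% lower. Among the other genes with at least 100 CPM 23.5% were higher, against 72.5% of the 80 ribosomal protein genes at that level. The median log2 difference was 0.36 against 0.018 over all genes, and the genes ranged from -0.59 to 0.90. The summed share was higher by 0.12 and 0.27 on the log2 scale in the mice, a mean of 0.20 ± 0.10 (SD, n = 2), but white matter of mouse 2 (12.6%) lay below cortex of mouse 1 (13.5%).

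Rps9, of the small subunit, held 1309 and 1115 CPM in white matter and 799.8 and 675 in cortex. Both white matter values lay above both cortical values, and the difference was 0.90 ± 0.10 (SE; adjusted p = 2.23e-11). Rplp0, the core of the stalk that recruits translation factors, held 662 and 579 against 394 and 387 CPM, again without overlap, and differed by 0.84 ± 0.10 (SE; adjusted p = 5.86e-11). Rps3, which lines the mRNA entry channel, differed by 0.82 ± 0.10 (SE; adjusted p = 3.76e-10), Rps12 by 0.81 ± 0.11 (SE; adjusted p = 7.69e-09) and Rpl28 by 0.81 ± 0.10 (SE; adjusted p = 9.37e-10). The genes lower in white matter were Rpl22l1, with 613 and 493 CPM against 1069 and 819.8 and a difference of -0.59 ± 0.11 (SE; adjusted p = 5.84e-06), and Rps19bp1, with -0.31 ± 0.12 (SE; adjusted p = 0.0207). Both were lower within each mouse and without overlap between groups. DESeq2 and a required lead of 0.1 over the next region's score each ended the call of Rps19bp1. Among the 22 that did not pass were Rpl12 (-0.11), Rpl29 (0.022) and Rpl17 (0.065).

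As the region's definition would have it, oligodendrocyte markers were higher in 10 of 10 genes, at 34357 and 40169 CPM summed against 5503 and 7327. Microglial markers were higher in 11 of 11, at 1290.3 and 1149 against 511 and 514, and neuronal markers lower in 9 of 10, at 2561 and 2771 against 5859 and 6151. Endothelial and mural markers were higher in 10 of 10, at 402 and 421 against 239 and 271, and astrocyte markers in 8 of 10, at 2577 and 2673 against 2321 and 2364. Choroid plexus markers were higher in 10 of 10, at 1959 and 1059.9 against 325 and 482, and of 10 genes of stress and RNA quality 2 were higher and 6 lower. Which of these cells carried the difference was not tested. Scaling to library totals, which lowered the median of all genes from 0.018 to -0.16, left 37 genes higher and 3 lower. Without the mouse as a block 14 were higher and none lower (1 lower at an unadjusted p under 0.05, and 1 by DESeq2 with the block), and at middle depth 45 were higher and 2 lower.

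The choroid plexus, the epithelium that makes cerebrospinal fluid, held fewer ribosomal protein UMIs than the cortex as a share, 9.59 and 7.54% against 13.5 and 10.5%, without overlap. The log2 difference was -0.50 and -0.47 in the mice. Part of the total there was 1 gene: Ttr, the transthyretin transcript, took 14.8% and 15.7% of UMIs. With Ttr left out of both totals the shares were 11.3% and 8.94% in choroid plexus against 13.5% and 10.5% in cortex. Per spot, ribosomal protein UMIs were not fewer in choroid plexus, with medians of 1273 and 1494.5 against 917 and 1475.5 in cortex. Its spots were deeper, with medians of 12553 and 19923 UMIs against 6553 and 13850. In the gene by gene test 34 of 83 were lower (41.0%) and 6 higher (7.23%), where 18.8% of all genes were lower and 21.5% higher, and the median was -0.23 (-0.0026 over all genes). Among the 1460 other genes with at least 100 CPM 48.9% were lower and 16.1% higher, against 42.5% and 7.50% of the 80 ribosomal protein genes at that level, so at like levels the share lower was near that of other genes. Scaling to library totals, which moved the median of all genes to -0.20, gave 63 lower and 1 higher.

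Rps27l was the strongest exception of any comparison (ENSMUSG00000036781; chr9:66944624-66949522). This paralog of Rps27, known as a target of p53, held 425 and 325 CPM in the choroid plexus and 126 and 96.1 in the cortex. Its choroid plexus values were the highest of the 8 regions in both mice, without overlap, and the log2 difference from cortex was 1.95 ± 0.11 (SE; adjusted p = 3.51e-23), or 3.87-fold. It passed under each alternative that was run. Its parent Rps27 held 2294 and 1495 CPM there and 2759 and 1744 in cortex, a difference of -0.050 ± 0.11 (SE; adjusted p = 0.763). Rplp0 (0.44 ± 0.12, adjusted p = 0.0015), Rpl7 (0.40 ± 0.11, adjusted p = 0.00334), Rps9 (0.39 ± 0.11, adjusted p = 0.00326), Rpl18 (0.32 ± 0.11, adjusted p = 0.018) and Rpl41 (0.32 ± 0.11, adjusted p = 0.0168) were the others higher (log2 ± SE). Each of these, Rpl41 included, lost its call with library totals and at middle depth, where Rpl18 stood at -0.14. Without the mouse as a block 2 were higher and 4 lower.

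Rpl12 was lowest relative to cortex, at 532 and 547 CPM against 1379 and 1119.9, with no overlap, an adjusted p of 1.07e-09 and 0.498 times the cortical level in the fit. Rpl17 (-0.76), Rpl37 (-0.73), Rpl9 (-0.68) and Rps29 (-0.67) also passed as lower. The region was small, with 39 and 26 spots. Neuronal markers were lower in 10 of 10 genes, and blood markers higher in 5 of 5, at 3145 and 31149.7 CPM summed against 1443 and 2352. Oligodendrocyte markers were higher in 9 of 10, at 7366 and 8581 against 5503 and 7327, endothelial and mural markers in 5 of 10, and microglial markers in 5 of 11 with 1 lower. Astrocyte markers were higher in 2 and lower in 4 of 10, and genes of stress and RNA quality lower in 5 of 10. Their part was not tested. In regions drawn from clusters in place of marker scores, which gave 105 and 93 spots, the summed share differed from cortex by -0.19 and -0.17.

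**Figure D4:**
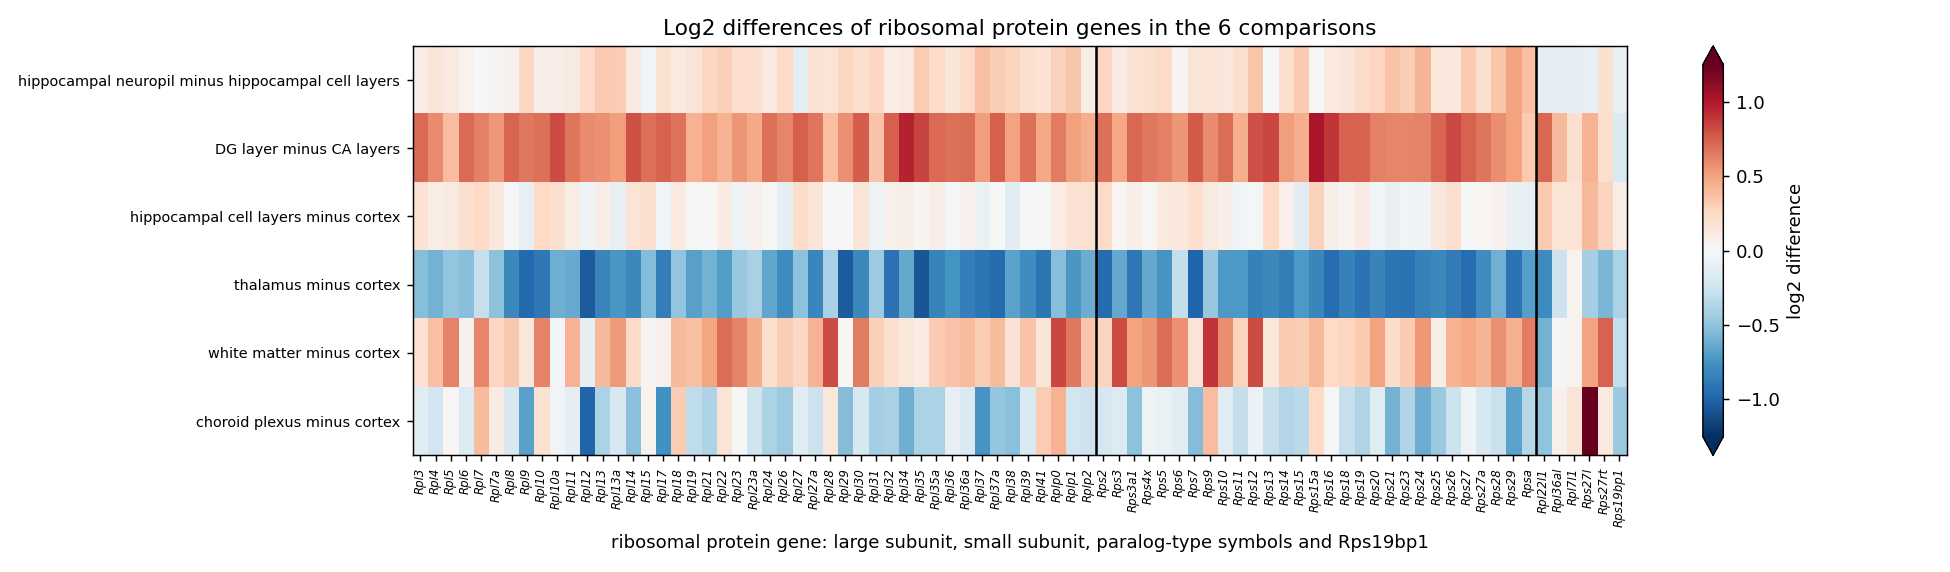
Log2 difference of 80 of the 83 tested genes (columns: large subunit, small subunit, then paralog-type symbols and Rps19bp1) in the 6 comparisons (rows); red is higher and blue lower in the region named first. The DG row is red and the thalamus row blue almost throughout, while the white matter row is mostly red and the choroid plexus row holds both colours; Rps27l in choroid plexus, at 1.95, lies beyond the end of the scale.

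The neuropil is where dendrites and axons of hippocampal neurons lie, and its spots were compared with the cell layers. The region is not shown to be free of cell bodies. In the clusters named as neuropil, the CA1 layer marker Spink8 and the CA3 layer marker Neurod6 were among the leading genes. These clusters took in 344 of 504 and 364 of 482 neuropil spots. Neuronal markers summed to 4767 and 4778 CPM in neuropil, 3618 and 4315 in DG, 4584 and 5040 in CA1 and 7930 and 8781 in CA3. Of 83 genes, 24 were higher in the neuropil (28.9%) and none lower, where 7.07% of all genes were higher and 3.27% lower; none was lower at an unadjusted p under 0.05, and by DESeq2 16 were higher and none lower. The median log2 difference was 0.19 against 0.036 over all genes, and the summed share differed by 0.087 and 0.20. The difference is from the mean of the layers. The neuropil share, 15.6 and 12.5%, lay above CA1 and CA3 but below the DG layer, at 20.1 and 13.7%, in both mice. Rps29, a zinc-binding small subunit protein, held 7617 and 6208 CPM in neuropil. The layers held 7437 and 5322 in DG, 6121 and 4111 in CA1 and 4919 and 3674 in CA3. The neuropil value was the highest of the 4 in each mouse, and the difference from the mean of the layers was 0.51 ± 0.090 (SE; adjusted p = 3.9e-05). Rps29 was the only gene of the 83 with its highest level of all regions in the neuropil in both mice. Rps24 (0.43 ± 0.090, adjusted p = 0.00047), Rpl37 (0.38 ± 0.089, adjusted p = 0.00185) and Rpsa (0.38 ± 0.086, adjusted p = 0.00138) were among the next.

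This comparison moved with depth. Neuropil spots had medians of 5099 and 11784 UMIs, below DG (7472 and 19523), CA1 (6276 and 16572) and CA3 (7816 and 20616). At middle depth no gene passed (nor at an unadjusted p under 0.05 by edgeR, the tool run there) and the summed share differed by -0.0069 and 0.029; the log2 difference of Rps29 was then 0.21 (adjusted p = 0.524). Glia also differed: astrocyte and oligodendrocyte markers were higher in 10 of 10 genes each, with astrocyte markers at 2713 and 2987 CPM summed in neuropil and 1991 and 1684 in CA1, and all 13 mitochondrial genes were higher. Microglial markers were higher in 8 of 11 and endothelial and mural markers in 6 of 10, with none lower. Of 10 neuronal markers 1 was higher and 2 lower. Their part was not tested. Without the mouse as a block no gene passed either (2 higher at an unadjusted p under 0.05), and with a lead of 0.1 over the next region's score 59 were higher.

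Between the hippocampal cell layers as a whole and the cortex few genes differed, although the DG share lay above that of cortex and the CA3 share below it in both mice. Of 83 genes 7 were higher in the layers (8.43%) and none lower, where 9.80% of all genes were higher and 13.5% lower. The share higher was thus near that of all genes, while the share lower was below it. Among the 1460 other genes with at least 100 CPM 22.7% were higher and 22.9% lower. Of the 80 ribosomal protein genes at that level 8.75% were higher and none lower. No ribosomal protein gene was lower at an unadjusted p under 0.05 or by DESeq2. The 7 higher genes included Rps27l (0.41 ± 0.093, adjusted p = 0.000512), Rpl22l1 (0.33 ± 0.093, adjusted p = 0.00508), Rps15a (0.29 ± 0.10, adjusted p = 0.0186), Rpl10 (0.25 ± 0.088, adjusted p = 0.0291), Rpl7 (0.24 ± 0.088, adjusted p = 0.0346) and Rps2 (0.24 ± 0.089, adjusted p = 0.0409). Rps27l held 260.3 and 154 CPM in DG, 155 and 136 in CA1 and 151 and 114 in CA3 against 126 and 96.1 in cortex, and each layer was above the cortex of its own mouse. The summed share differed by 0.12 and 0.058, and by 0.047 and -0.049 without mitochondrial UMIs, which took 13.6 and 16.7% of the cortex. All 13 mitochondrial genes were lower in the layers. The calls of Rps15a, Rpl10 and Rpl7 were each lost in some alternatives. Library totals gave 21 genes higher, middle depth 12, and the fit without the mouse as a block none (1 at an unadjusted p under 0.05). Each of the 6 comparisons shares its cortex or cell layer libraries with another, so a gene's values in them are not independent.

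Large and small subunit genes moved together. In the DG comparison 48 of 49 large and 32 of 34 small subunit symbols were higher, with medians of 0.65 and 0.63. In the thalamus 48 of 49 and 34 of 34 were lower, with medians of -0.68 and -0.81. The UMIs of large subunit genes divided by those of small subunit genes came to 1.38 and 1.38 in the thalamus and 1.23 and 1.20 in white matter, the highest and lowest of the 8 regions in both mice. The other regions lay between, from 1.23 (neuropil of mouse 1) to 1.35 (CA3 of mouse 2), and no test was made of this ratio. Of the stalk proteins, Rplp0, Rplp1 and Rplp2 were each higher in DG than CA (0.65, 0.51 and 0.45), lower in thalamus (-0.53, -0.72 and -0.62) and higher in white matter (0.84, 0.66 and 0.34). In the choroid plexus Rplp0 was higher, at 0.44, while Rplp1 and Rplp2, at -0.23 and -0.26, did not pass.

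Gene by gene, 53 of the 83 had their highest level in the DG layer in both mice, and 56 had their lowest in the thalamus in both. In mouse 1 the DG layer was highest for 73 genes and in mouse 2 for 54. White matter was highest in both mice for 7, among them Rpl5, Rpl28, Rplp0, Rps3, Rps9 and Rpsa. The choroid plexus was lowest in both for 11, and highest for Rps27l alone. None had its highest level in the cortex or the thalamus in either mouse. These counts carry no test.

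By UMIs, Rps29, Rps21, Rps24, Rpl38 and Rplp1 were counted most. Rps29 was the only gene of the 83 highest in the neuropil in both mice (7617 and 6208 CPM), and held 3167 and 2847 in the thalamus. Rps21 held 7544 and 4342 CPM in DG and 3013 and 2242 in the thalamus. Rpl38, which is known for its part in translating Hox transcripts, held 5086 and 3319 in DG and 2471 and 1899 in the choroid plexus. Rps24 held 4710.0 and 4072 in white matter, 5393 and 3662 in DG and 2215 and 1878 in the thalamus. For each of the 5 genes the lowest region was the thalamus or the choroid plexus in both mice.

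The paralog pairs did not always move as 1 unit. Rpl22, a large subunit protein outside the catalytic core, is known to repress its paralog Rpl22l1 (ENSMUSG00000028936; chr4:152324436-152334082 and ENSMUSG00000039221; chr3:28805508-28807424). Rpl22 was higher in white matter than cortex (988 and 812 against 721 and 544 CPM), a difference of 0.69 ± 0.10 (SE; adjusted p = 5.24e-08), whereas Rpl22l1 was lower there (-0.59). The ratio of Rpl22l1 to Rpl22 UMIs was 1.98 and 1.95 in DG, 1.71 and 1.84 in CA1, 1.48 and 1.51 in cortex and 1.37 and 1.45 in thalamus. It was 0.992 and 0.888 in choroid plexus and lowest in white matter, at 0.620 and 0.607, with no overlap between white matter and any other region. In the choroid plexus Rpl22l1 was lower than in cortex (-0.51 ± 0.12, adjusted p = 0.000533) and Rpl22 stood at 0.16 ± 0.12 (SE; adjusted p = 0.285). Both were lower in the thalamus (-0.70 for Rpl22 and -0.78 for Rpl22l1) and higher in DG than CA (0.43 and 0.72). The differences between ratios were not tested.

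The ratio of Rps27l to Rps27 was 0.185 and 0.217 in choroid plexus, against 0.0458 and 0.0551 in cortex and 0.0725 and 0.0823 in CA3, and its choroid plexus values exceeded those of every other region. Rpl36al stood to Rpl36a as 1.19 and 1.46 in thalamus and 0.598 and 0.708 in white matter; Rpl36a fell by 0.85 in the thalamus and Rpl36al by 0.26. Rpl7l1 held between 38.1 and 60.2 CPM over all regions and both mice and passed in none of the 6 comparisons, while Rpl7 passed in 5. Rpl10, Rpl3, Rpl39 and Rps4x were tested without their paralogs, and were higher in DG by 0.69, 0.71, 0.68 and 0.66. Rpl10l had no UMI in the regions of either mouse, Rpl39l had 5 and 9, and Rpl3l, known from muscle, had 7 and 16, so these 3 were not tested. Where a paralog or copy is near identical in sequence, reads may have been divided or dropped in counting, which makes these values uncertain.

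**Figure D5:**
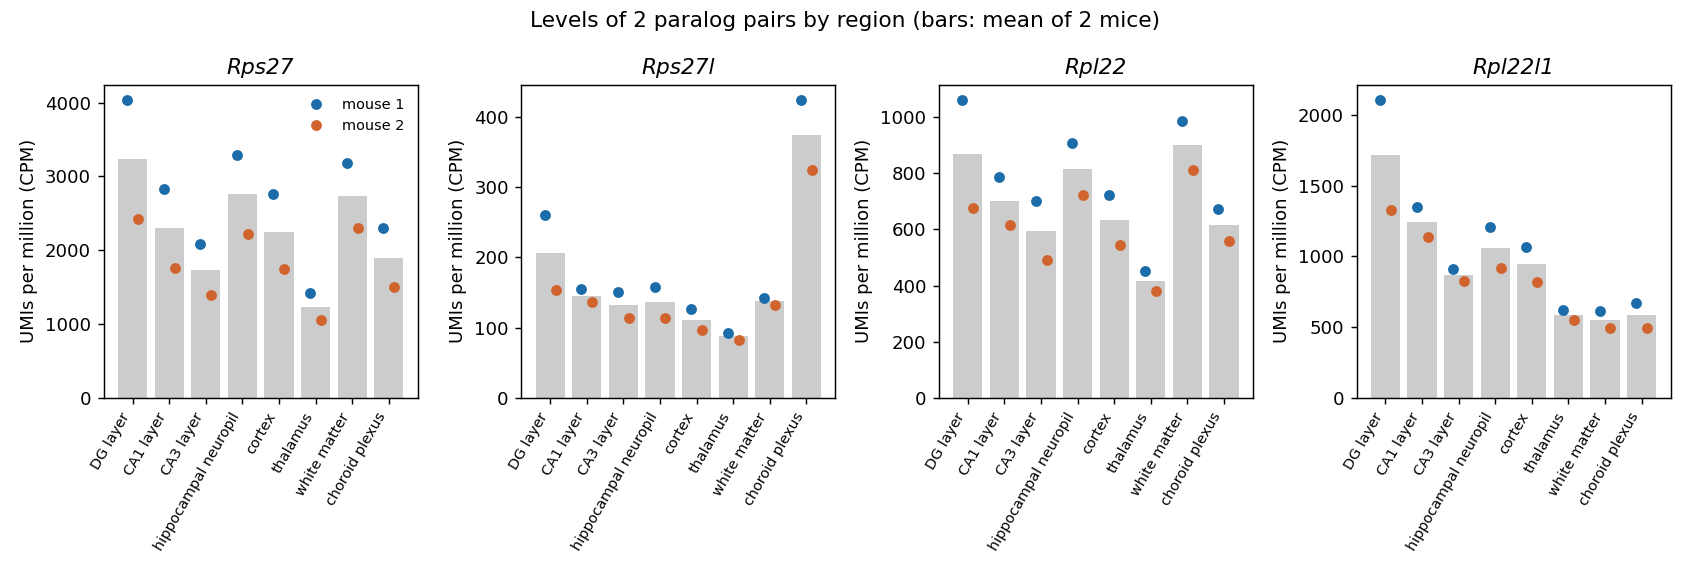
Level of 4 genes forming 2 paralog pairs in the 8 regions, in CPM; points are the mice and bars their mean, with axes from 0. Rps27l peaks in the choroid plexus, at 425 and 325 CPM, where Rps27 holds 2294 and 1495, and Rpl22l1 is lowest in white matter, thalamus and choroid plexus, while Rpl22 in white matter, at 988 and 812 CPM, is above cortex.

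Other parts of the translation machinery were read from the same fit. Fau, a ribosomal protein made as a fusion to a ubiquitin-like protein, was higher in DG than CA (0.55 ± 0.10, log2 ± SE) and lower in the thalamus than in cortex (-0.72 ± 0.11). Rack1, a scaffold protein of the small subunit, was likewise higher in DG (0.67 ± 0.12) and lower in the thalamus (-0.42 ± 0.10). Of 10 genes listed as elongation factors, with the TOP transcript Tpt1 among them, those higher in DG were 3, Eef1a1 (0.50 ± 0.094), Tpt1 and Eef1b2, and 4 were lower in the thalamus, with medians of 0.23 and -0.095. In white matter 5 of 10 were higher and 1 lower, with Eef1d (1.45 ± 0.10) and Tpt1 (1.11 ± 0.11) among those higher. Of 38 initiation factors 5 were higher in DG, and in the thalamus 11 were higher and 7 lower, with a median of 0.0083.

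The proteins of the mitochondrial ribosome, a separate particle, were counted apart. Of 78 genes 4 were higher in DG, 40 lower and 3 higher in the thalamus, and in white matter 27 were lower and 6 higher. Their medians were 0.16, -0.23 and -0.16. Of 33 ribosome biogenesis genes tested 2 were higher and 1 lower in DG, and 7 higher and 8 lower in the thalamus. Of 19 genes that control TOP mRNAs, such as Larp1 and Mtor, 2 were higher in DG (the S6 kinase genes Rps6ka2 and Rps6kb2), and in the thalamus 5 were higher and 5 lower, among them Eif4ebp1 (-1.77 ± 0.28). Of 14 genes listed under nascent chains and ribosome quality control, with the tRNA synthetase gene Nars among them, 2 were higher in DG and 1 lower. Btf3 (0.80 ± 0.12) and Naca (0.59 ± 0.11), which form the nascent polypeptide complex, were higher, and Nars (-0.62 ± 0.15) was lower. In the thalamus 5 of the 14 were higher and 5 lower. Differences between these lists and the ribosomal protein genes were not tested.

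Between the mice, each a single animal with its own genotype label and section, no test was possible, and the genes named here were chosen after their values were seen. Over the 8 regions the median log2 ratio of mouse 2 to mouse 1 was -0.29 over the 83 genes, against 0.058 over 11958 genes with at least 200 UMIs. Rpl35 stood apart, with a median of -1.19 and values from -1.24 to -1.05 in the 8 regions. In the neuropil it held 2123 and 1023 CPM. Rps27rt (ENSMUSG00000050621), a retrogene copy of Rps27, went the other way, with a median of 1.65 and values from 1.23 to 2.30, and in the neuropil it held 24.5 and 67.4 CPM. The other 81 genes had medians between -0.62 and 0.20.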

How the data were processed

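RNA was counted by Visium in 1 section from each of 2 mice of 1 group. The deposited values are counts of UMIs for each gene at each spot. Space Ranger 1.3.1 is named in the file headers as the tool behind them, and mm10 in the submitters' processing notes as the genome. Which annotation it used is not given in the sources used here. Across both sections 3369 barcodes recur, which are positions of the array design and not cells. Gene positions came from RefSeq (GRCm38.p6).

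Spots under tissue with at least 500 UMIs were used (3712 of 3715 and 3548 of 3549). For each of 18 marker sets, logged UMIs per 10000 were scaled from the section's median to its 99.5th percentile and averaged over markers seen in at least 1% of spots, and a spot went to the highest set if its score reached 0.25. The 5 cortical sets were merged, and 6 sets only kept spots out of other regions. No doublet caller was run, since spots hold several cells. UMIs were summed per mouse and region into 16 libraries and fitted together in edgeR 4.0.16 under R 4.3.3, by its quasi-likelihood test with TMM factors and filterByExpr. The model had the mouse as a block, because the same animals gave all regions, with Benjamini-Hochberg adjustment over 12996 genes at 0.05. The fit had 7 residual and 55.1 prior degrees of freedom and a common dispersion of 0.00378. The SE of a log2 value comes from the F statistic and rests on this pooled spread. P-values thus rest on 2 mice, and an exact sign-flip test of the summed share over them cannot go below 0.5, so none is given. For a single mouse, log2 values were taken with 2 as the prior count. Clusters came from scanpy 1.11.5 (2000 variable genes, 30 components, 15 neighbours, resolution 1). DESeq2 1.42.0 was an alternative. The edgeR fit was tested on simulated data.

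The rule of symbols, the gene lists and the regions were chosen with earlier results of these data known. For each comparison the text names the 5 largest changes past the threshold in each direction with both mice agreeing, the paralog pairs and the 5 genes with most UMIs, and further genes by role, among them Rps6, Rpsa, Rplp2, Rps2 and Rpl41, after their values were seen. Some genes that this rule names are not reported here. Rps4l was not analysed here. The alternatives for contiguous spots and middle depth were added after seeing the data.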

Additional observations from a re-analysis of the deposited data

Results flagged for a closer look

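Features with -ps in their symbol, which the rule left out, carried UMIs above the limit that a count of 0 allows (3 counts). Over both sections Rpl9-ps6 had 2486 UMIs, 584 in mouse 1 and 1902 in mouse 2. Rpl10-ps3 had 1217, of which 424 and 793 lay in the mice. Rpl36a-ps1 had 485, of which 33 were in mouse 1 and 452 in mouse 2, while the depth of the sections was 30671753 and 55315952 UMIs. All 5 such features together held 1043 and 3148 UMIs, 0.0272% and 0.0574% of those of the ribosomal protein genes, and their part in the counts of Rpl9, Rpl10 and Rpl36a was not tested.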

How the results depend on the processing

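Without the replicate block (mouse as a term), the counts of higher genes fell to 0 (neuropil), 39 (DG), 0 (cell layers), 14 (white matter, with 0 lower) and 2 (choroid plexus, with 4 lower). Without TMM, on library totals, the higher genes were 21 in cell layers, 37 in white matter and 1 in choroid plexus, where 63 were lower. Without a filter on low counts they were 4 in cell layers and 2 in choroid plexus, with 55 lower. A score of 0.4 gave 11 in cell layers and a summed share of -0.45 in choroid plexus. A lead of 0.1 over the next region gave 59 in neuropil, 3 higher and 3 lower in cell layers, 1 lower in white matter and a summed share of 0.24 in neuropil. Fitting the regions of a comparison alone gave 13 in neuropil and 4 in cell layers, and DESeq2 gave 1 lower in white matter. Contiguous spots gave 14 in cell layers and -0.54 in choroid plexus. Middle depth gave 0 in neuropil, 12 in cell layers and 1 in choroid plexus, with summed shares of 0.011, 0.21 and -0.37. Without mitochondrial UMIs the summed share of cell layers reversed to -0.0012, and that of choroid plexus was -0.56; Leiden clusters gave -0.18 for the latter. Rpl18 in choroid plexus reversed to -0.14 at middle depth (adjusted p = 0.692). Beyond what the settings themselves change, the cause was not tested.

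With 1 mouse left out, the summed share ranged from 0.087 to 0.20 (neuropil), 0.50 to 0.67 (DG), 0.058 to 0.12 (cell layers), -0.75 to -0.59 (thalamus), 0.12 to 0.27 (white matter) and -0.50 to -0.47 (choroid plexus). No residual degrees of freedom then remain, so genes were not tested. The clusters held no CA1 region, so the comparisons with cell layers have no value there. Library totals moved the median of all genes by over 0.1 in the neuropil (0.036 to -0.064), thalamus (0.027 to 0.13), white matter (0.018 to -0.16) and choroid plexus (-0.0026 to -0.20). Relative to it the ribosomal protein genes' median stayed at -0.77 and -0.76 in the thalamus, 0.34 in white matter and -0.23 in choroid plexus under both scalings, and at 0.15 and 0.17 in the neuropil. Of 130 results for named genes 90 passed; 34 of these passed under every alternative and 67 under every alternative other than the one without the block, and 17 of the other results gained a call.

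The limits are those of 2 mice, no untreated section and regions drawn from markers. Depth differed between mice and regions. The region with the fewest spots, the choroid plexus of mouse 2, held 26 spots and 606683 UMIs. The fewest UMIs were in the DG layer of mouse 1, with 234371 in 30 spots.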

Other observations

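Genes of the respiratory chain that are encoded in the nucleus were read from the same fit (edgeR's quasi-likelihood test). Of 92 tested, 55 were lower and 9 higher in the thalamus than in the cortex, with a median log2 difference of -0.29. In white matter 52 were lower and 6 higher, with a median of -0.29. In the DG layer 12 were higher than in the CA layers, with a median of 0.083. Of 10 genes of stress and RNA quality 4 were lower and 2 higher in DG (median -0.49), and 6 and 2 in white matter (-0.30). In the thalamus 5 were lower and 2 higher (-0.28), and in the choroid plexus 5 were lower and none higher (-0.37). The immediate early gene Jun, 1 of the 10, was named after its values were seen. It was higher in DG, white matter and the thalamus, by 2.26 ± 0.18 (log2 ± SE), 1.12 ± 0.11 and 0.63 ± 0.10, but not in the choroid plexus.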
